A study of Mus musculus with 6 samples.

Results

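Expression of potassium channel genes was examined in fibroblasts of mouse mammary tumors, known as cancer-associated fibroblasts (CAFs). The members were the genes whose symbol is Kcn followed by letters and a final number, which covers pore-forming and accessory subunits, together with the sulfonylurea receptor genes Abcc8 and Abcc9. They numbered 94 of the 27179 genes in the table, and 40 of them had enough counts to be tested, among 14855 tested genes. The mice were of the raGFP-Wnt1 line, in which a Wnt1 transgene under the mouse mammary tumor virus promoter drives mammary tumors and a Pdgfra reporter allele places green fluorescent protein (GFP) in the nuclei of Pdgfra-expressing fibroblasts. Both alleles were shared by all samples, which received no treatment named in the labels, and the age of the mice was not given in the sources used here. GFP+ CAFs of tumors 1, 2 and 3 were each sorted by surface CD34 into a CD34- and a CD34+ fraction, which gave 3 libraries per group and 6 in all. GFP marks cells by the activity of the Pdgfra locus only, so other cells in which that locus is active would also be sorted. Whether the 3 tumors came from 3 animals was not stated, so p-values measure the spread between these tumors.

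Potassium channels let potassium ions leave or enter a cell along their gradient and so set the resting membrane potential, cell volume and calcium entry. Voltage-gated channels open on depolarization, calcium- or sodium-activated channels follow internal ions, inward rectifiers and 2-pore-domain leak channels hold the membrane near the potassium potential, and accessory subunits alter how pores open and reach the surface. ATP-sensitive channels combine an inward rectifier pore with a sulfonylurea receptor and couple metabolism to membrane potential, and in fibroblasts and smooth muscle potassium channels are known to bear on contraction, volume and proliferation.

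The libraries held between 16238059 and 86609267 counts, and members took between 0.0182% and 0.0323% of them. Between 35 and 75 of the 94 members had at least 1 count in a library. The CD34- library of tumor 3 had the fewest, and 1178 tested genes, 7.93% of all, had no count in it, among them 8 tested members. The CD34+ library of tumor 3 had 4 tested members at 0, and the other libraries 1 at most. A count of 3, taken as the limit below which a gene cannot be told from 0, was worth between 0.0346 and 0.185 CPM, the count relative to library size. Cd34 itself, the gene of the sorting marker, lay between 42.0 and 101.8 CPM in the CD34- libraries and between 562.5 and 1605 CPM in the CD34+ libraries, and Pdgfra lay between 301.6 and 505.6 CPM in all 6 libraries.

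Levels of different genes were compared as CPM per kilobase of gene length, averaged over the 6 libraries, with their range over libraries. Kcne4, an accessory subunit that dampens voltage-gated channels, had the highest level at 20.1 CPM per kilobase, with libraries between 10.0 and 29.5. It was above the next 10 members in 6 of 6 libraries. Below it came Abcc9 at 4.70 (1.01 to 11.6), Kcnj15 at 3.81 (0.535 to 8.55), Kcnk2 at 3.11 (0.934 to 6.43), Kcnj8 at 2.86 (0.779 to 8.82) and Kcnk5 at 2.77 CPM per kilobase (1.15 to 5.08). Among these genes the order did not hold across libraries. Abcc9 was above Kcnj15 in 2 of 6 libraries and Kcnj8 above Kcnk5 in 1 of 6, so neighbours from the second place on did not differ beyond their spread. In all, 17 members averaged over 1 CPM per kilobase and 21 lay between 0.1 and 1.

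**Figure D1:**
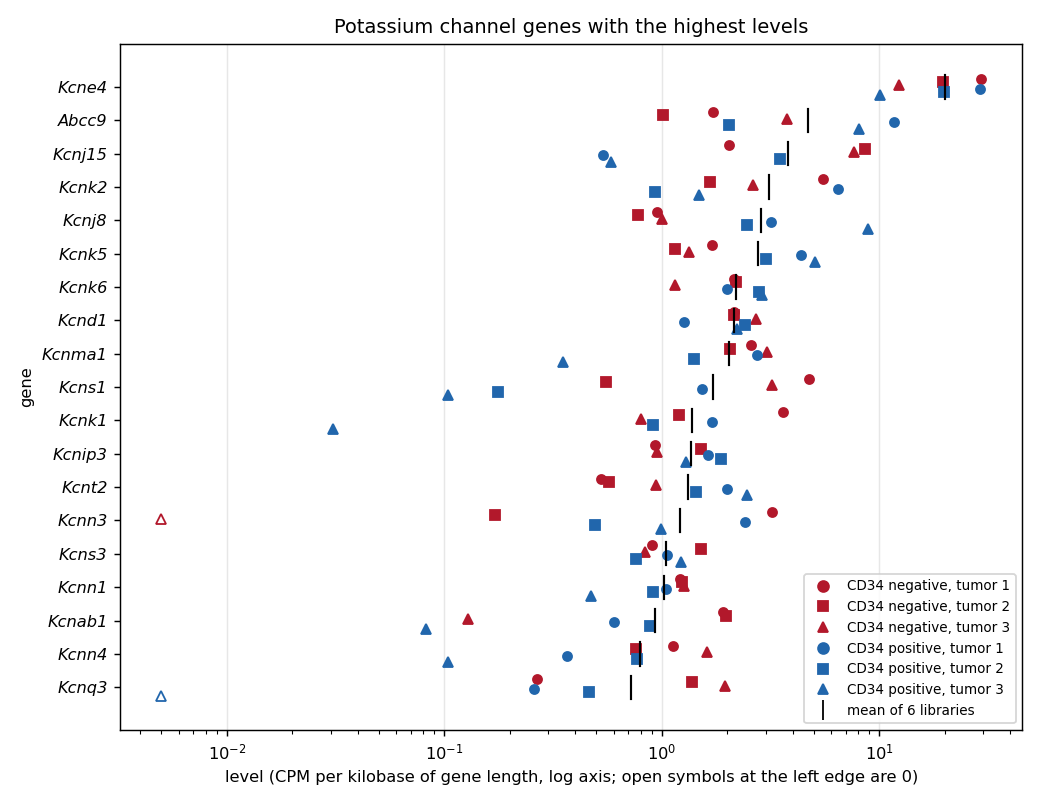
Levels of 19 of the 20 members with the highest mean, as CPM per kilobase of gene length on a log axis, 1 symbol per library (red CD34-, blue CD34+, shape by tumor) with the mean of the 6 libraries as a bar. Kcne4 stands above all others in every library, and open symbols at the left edge are libraries with no count, such as Kcnn3 in the CD34- library of tumor 3.

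By class, accessory subunits held 38.4% of the summed level per kilobase, 2-pore-domain genes 16.3%, inward rectifiers 12.3%, calcium- or sodium-activated genes 10.6%, voltage-gated pores 9.26%, sulfonylurea receptors 7.46% and the electrically silent voltage-gated modifiers 5.68%. Of the 24.2 CPM per kilobase summed over the accessory subunits, Kcne4 alone made up 20.1. The voltage-gated pore class was the largest in number, with 30 members, of which 10 could be tested. Its summed level per kilobase stayed between 5.07 and 6.99 in the 6 libraries. The sulfonylurea receptor level, which came from Abcc9 alone, ranged from 1.01 to 11.6.

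The comparison of CD34- with CD34+ CAFs asks how the 2 fibroblast fractions of a tumor differ. Fold changes are on the log2 scale, and a positive value means a higher level in CD34- CAFs. In limma-voom without a term for the tumor, which the study's methods do not mention, 0 of 40 tested members had an adjusted p under 0.05, beside 0.121% of all tested genes. The smallest adjusted p of a member was 0.142. In the same fit 6 of 40 members had an unadjusted p under 0.05, beside 2128 of all 14855 tested genes. Without the tumor edgeR also called 0, with 6 members at an unadjusted p under 0.05. Since the 2 fractions of a number came from 1 tumor, limma-voom was also fitted with the tumor as a block. That fit is given beside each member whose call it changes and beside some others. With the block, 5 of 40 members (12.5%) had an adjusted p under 0.05, beside 8.57% of all tested genes. Kcnj8, Abcc9, Kcnk5 and Kcnt2 were lower in CD34- CAFs (4 members, beside 4.25% of all genes), and Kcnj15 was higher (1 member, beside 4.32%). The edgeR test with the block called Kcnj8 and Kcnk5, 5% of members beside 3.87% of all genes. DESeq2 without the block called Kcnj8, Kcnk5 and Kcnt2, 3 of the 24 members that it gave an adjusted p (12.5%, beside 5.45% of all genes), and DESeq2 with the block called 7 of 34, among them the 5 named above and Kcns1 (20.6%, beside 12.6%). These shares rest on between 2 and 7 members, and their distance from the shares of all genes was not tested. On simulated counts the fits with the block made a larger share of false calls than the nominal one, so their adjusted p may be too small.

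The tested members had 27 positive and 13 negative fold changes, with a median of 0.37, while all tested genes had 7081 positive and 7774 negative ones with a median of -0.028. With the block the member median was 0.34. The median log2 ratio of members within tumors 1, 2 and 3 was 0.19, -0.010 and 0.45, so tumor 2 showed none of it. It was 0.078 under the block without the CD34- library of tumor 3, 0.13 without the CD34+ library of tumor 3 and 0.074 without a filter on low counts. In 6 of 40 members the 3 libraries of one group all lay above those of the other, beside 20.4% of all tested genes. Kcnmb1 and Kcnn1 were the 2 with CD34- on top, and the 4 with CD34+ on top included Kcnj8, Kcnk5 and Kcnt2. Kcnn1 stands outside the naming rule and was named after its values were seen. The fold change had the same sign in all 3 tumors for 19 of 40 members, beside 46.3% of all tested genes. Members were also less precisely measured than most genes, with a median standard error of the fold change of 0.91 against 0.32 over all tested genes.

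**Figure D2:**
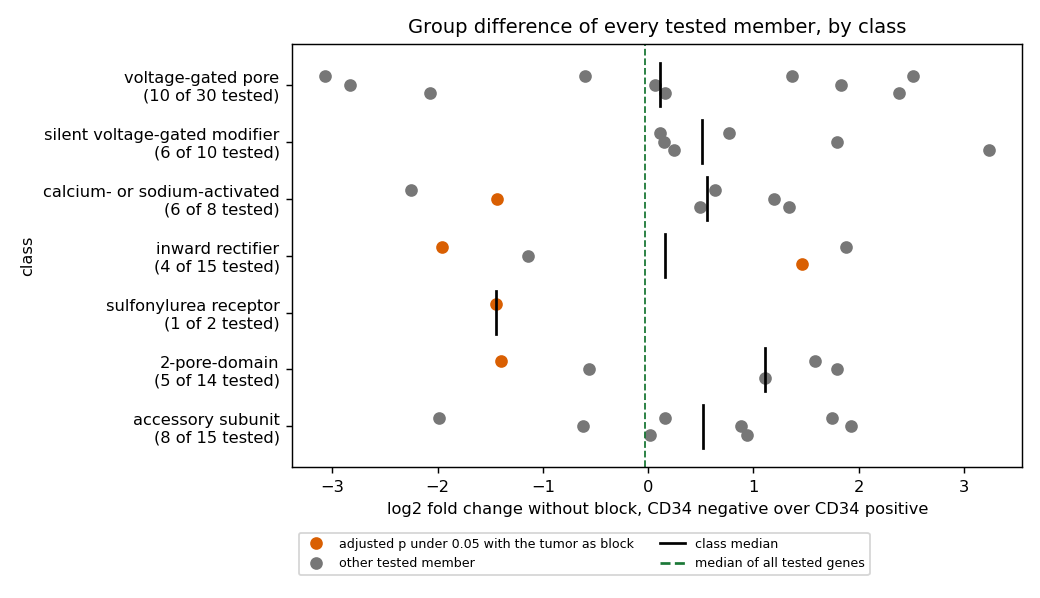
Log2 fold change without the block of each of the 40 tested members, by class, with the class median as a bar and the median of all tested genes as a dashed line. Points lie on both sides of 0 in every class with more than 1 tested member except the silent modifiers, whose 6 values are positive, and the 5 members called with the tumor as block are marked in orange.

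Kcnj8 encodes the inward rectifier pore and Abcc9 the sulfonylurea receptor of the ATP-sensitive channel known from vascular smooth muscle and pericytes. The genes are neighbours on chromosome 6 in the GRCm38.p6 build, Kcnj8 at chr6:142564837-142571614 and Abcc9 at chr6:142587862-142702766, both on the minus strand and 16247 bases apart. In tumors 1, 2 and 3, Kcnj8 had 2.08, 1.71 and 2.201 CPM in the CD34- libraries and 6.93, 5.38 and 19.3 CPM in the CD34+ libraries. The groups did not overlap, and the CD34+ fraction of tumor 3 stood far above the rest. The means were 2.00 ± 0.26 and 10.5 ± 7.63 CPM (SD, n = 3). On the log2 scale limma-voom gave -1.96 ± 0.68 (SE; adjusted p 0.248), and -2.31 ± 0.46 once the tumor was a block (adjusted p 0.0161). Under the block Kcnj8 stayed under the threshold without tumor 1, 2 or 3, at adjusted p of 0.0339, 0.00632 and 0.00948.

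Abcc9 had 13.0, 7.59 and 28.3 CPM in the CD34- libraries of tumors 1, 2 and 3 and 87.8, 15.3 and 60.7 CPM in the CD34+ libraries. The groups overlapped, since the CD34- fraction of tumor 3 was above the CD34+ fraction of tumor 2, yet within each tumor the CD34+ value was the higher one. The log2 ratios within tumors were -2.75, -1.01 and -1.10. In limma-voom the log2 fold change came to -1.44 ± 0.71 (adjusted p 0.399), and the block brought it to -1.71 ± 0.32 (adjusted p 0.0123). Tumor 1 weighed most: without it the value was -0.84 without the block and -1.08 with it (adjusted p 0.0180). Abcc9 was called by neither edgeR with the block (adjusted p 0.0645) nor DESeq2 without it (adjusted p 0.0619).

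The pore and the receptor did not keep 1 ratio. Abcc9 per kilobase over Kcnj8 per kilobase was 1.81, 1.29 and 3.73 in the CD34- libraries and 3.68, 0.824 and 0.913 in the CD34+ libraries of tumors 1, 2 and 3. The 2 groups of ratios overlapped. The other pair of ATP-sensitive channel genes, the pore Kcnj11 and the receptor Abcc8, which form the channel of pancreatic beta cells, also lie side by side, 3570 bases apart on chromosome 7. Neither had a count in any library, which allows at most between 0.0346 and 0.185 CPM per library (3 counts, counting error only).

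Promoter windows of 300 bases, from 250 before to 50 after a transcript start, are shown for the channel pair and for Kcnj15, the member that lay on the other side of the comparison. They are given 5′ to 3′ on the strand of the gene, from RefSeq on GRCm38.p6, which held a window for 68 of the 94 members. The windows are chr6:142571565-142571864 for Kcnj8, chr6:142702225-142702524 for Abcc9, whose start lies inside the annotated gene span, and chr16:95257308-95257607 (plus strand) for Kcnj15. Capitals mark the matches, on either strand, to the TATA box (TATAAA), the CAAT box (CCAAT) and the GC box (GGGCGG), which do not overlap each other in these windows.
Kcnj8: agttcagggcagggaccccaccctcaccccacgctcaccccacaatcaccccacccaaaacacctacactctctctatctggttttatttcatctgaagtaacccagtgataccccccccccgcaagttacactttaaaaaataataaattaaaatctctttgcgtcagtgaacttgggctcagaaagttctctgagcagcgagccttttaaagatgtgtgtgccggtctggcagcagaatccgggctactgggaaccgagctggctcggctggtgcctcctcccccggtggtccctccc
Abcc9: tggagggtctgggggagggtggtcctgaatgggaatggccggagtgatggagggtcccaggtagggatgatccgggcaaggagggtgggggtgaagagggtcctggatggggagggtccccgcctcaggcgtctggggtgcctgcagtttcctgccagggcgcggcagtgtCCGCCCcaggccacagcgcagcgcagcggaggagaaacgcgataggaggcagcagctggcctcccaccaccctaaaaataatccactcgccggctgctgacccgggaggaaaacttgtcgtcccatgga
Kcnj15: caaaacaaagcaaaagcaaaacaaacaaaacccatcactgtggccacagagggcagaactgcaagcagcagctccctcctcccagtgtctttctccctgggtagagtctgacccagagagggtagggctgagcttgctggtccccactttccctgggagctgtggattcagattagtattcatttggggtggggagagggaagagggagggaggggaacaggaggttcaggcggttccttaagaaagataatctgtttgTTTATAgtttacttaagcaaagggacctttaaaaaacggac
The Kcnj8 window held none of the 3 motifs, Abcc9 held 1 match to the GC box and Kcnj15 held 1 match to the TATA box, each read on the opposite strand. Over all 32851 windows, 35.7% held the GC box, 37.4% the CAAT box and 13.6% the TATA box. The neighbours Kcnj8 and Abcc9 thus shared no match. GC content was 53.3% for Kcnj8, 65.7% for Abcc9 and 49.7% for Kcnj15, and CpG dinucleotides numbered 9, 16 and 2, beside medians of 52.7% and 7 over all windows. A match is a stretch of letters and not a measured binding site.

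Kcnj15, at chr16:95257558-95300260, encodes an inward rectifier of epithelia and was the member called higher in CD34- CAFs. Its CPM in tumors 1, 2 and 3 was 10.6, 44.5 and 39.8 in the CD34- libraries and 2.79, 18.2 and 3.03 in the CD34+ libraries. The groups overlapped because tumor 2 was high in both fractions and tumor 1 low in both, and within each tumor the CD34- fraction was the higher one, with log2 ratios of 1.91, 1.29 and 3.70. Its log2 fold change in limma-voom came to 1.46 ± 0.89 (adjusted p 0.493), and to 1.74 ± 0.37 with the block (adjusted p 0.0204). Under the block it was 3.30 without tumor 2 and 1.36 without tumor 3, both still under the threshold. With the block, edgeR gave an adjusted p of 0.0522. The study lists Kcnj15, like Kcnk2 and Kcnma1, among marker genes of its fibroblast clusters.

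**Figure D3:**
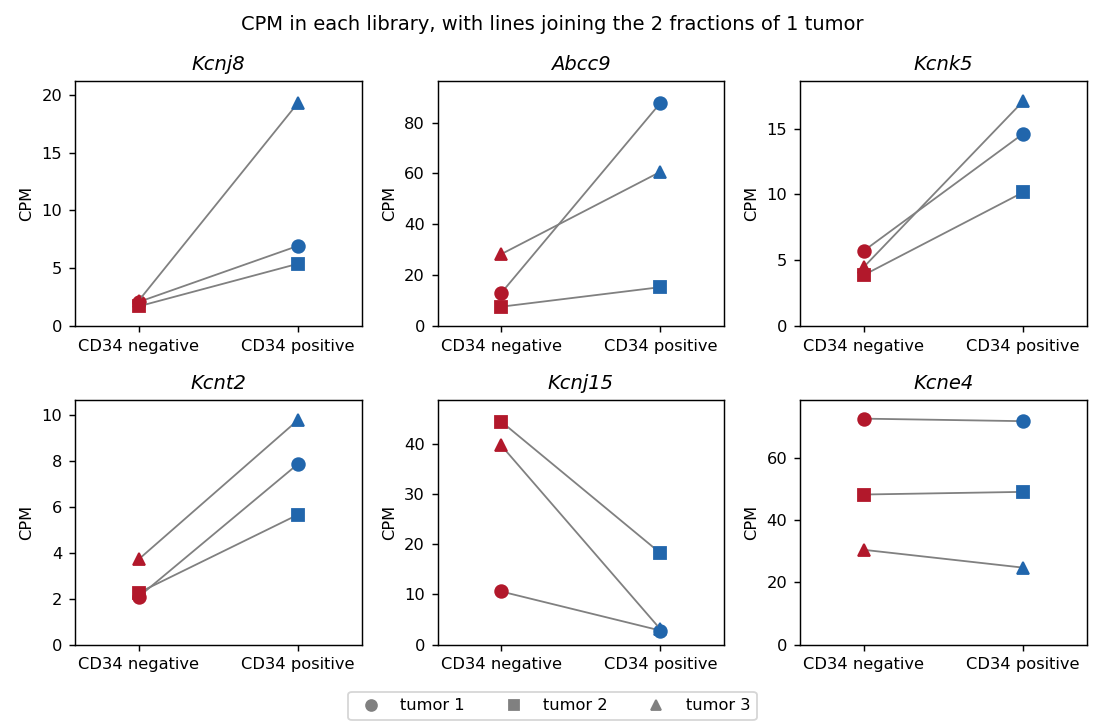
CPM of the 5 members called with the tumor as block and of Kcne4, 1 panel per gene with its own axis from 0, with lines joining the CD34- (red) and CD34+ (blue) library of a tumor. All 3 lines rise toward CD34+ for Kcnj8, Abcc9, Kcnk5 and Kcnt2 and fall for Kcnj15, while those of Kcne4 are nearly level.

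Of the other inward rectifiers, Kcnj2, which sets the resting potential of muscle and many other cells, had 2.29 ± 1.32 CPM in CD34- and 4.11 ± 1.60 CPM in CD34+ CAFs, with a log2 fold change of -1.14 ± 0.52 (adjusted p 0.373 in limma-voom). It was lower in the CD34- fraction of 3 of 3 tumors. Kcnj4, of the same subfamily, had lower levels, 0.912 ± 0.556 and 0.365 ± 0.327 CPM, and a value of 1.88 ± 1.04 (adjusted p 0.451). The CD34+ mean of Kcnj4 rested on between 5 and 15 counts per library. The remaining 11 inward rectifiers were not tested, and 3 of them, Kcnj3, Kcnj11 and Kcnj16, had no count.

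Among the 2-pore-domain leak channels, Kcnk5, a channel that opens at alkaline pH and takes part in volume regulation, had the smallest adjusted p of all members without the block. Kcnk5 lies at chr14:20140057-20181782. Its CPM was 5.71, 3.88 and 4.48 in the CD34- libraries and 14.6, 10.2 and 17.1 in the CD34+ libraries of tumors 1, 2 and 3. The groups were far apart relative to their spread, and the log2 ratios within tumors, -1.35, -1.39 and -1.93, lay close together. This gave -1.40 ± 0.35 on the log2 scale in limma-voom (adjusted p 0.142) and -1.55 ± 0.30 with the block (adjusted p 0.0134). Without tumor 1 the block gave an adjusted p of 0.0537, with the value at -1.65.

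Kcnk2, a leak channel gated by stretch and lipids, had a mean level per kilobase above that of Kcnk5, without a separation by CD34. Its CPM was 21.9, 6.62 and 10.4 in the CD34- libraries and 25.4, 3.70 and 5.86 in the CD34+ libraries. Both fractions of tumor 1 were high. On the log2 scale the difference was 1.11 ± 0.63 (adjusted p 0.466 in limma-voom), and 0.33 ± 0.30 with the block. A pseudogene with more counts, Pdcd5-ps (5692 counts in all, against 2798), lies inside Kcnk2, and the library kit does not mark strand. Kcnk1, a weak leak channel, had 4.31 ± 3.50 CPM in CD34- and 2.03 ± 1.92 CPM in CD34+ CAFs, with a log2 fold change of 1.80 ± 1.18 (adjusted p 0.527 in limma-voom) and 2 counts in the CD34+ library of tumor 3. The value was 0.71 without that library, 1.06 without the CD34- library of tumor 1, 3.24 without the CD34+ library of tumor 2 and 0.88 with the block. Kcnk6, next to these per kilobase and named after its values were seen, had 7.46 ± 2.39 and 10.5 ± 2.01 CPM, with a value of -0.56 ± 0.32. Of the 14 genes in the class, 9 were not tested, and Kcnk9, Kcnk16 and Kcnk18 had no count.

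Kcnt2 encodes a sodium-activated channel and lies at chr1:140245657-140614045. It had 2.08, 2.26 and 3.71 CPM in the CD34- libraries and 7.86, 5.65 and 9.77 CPM in the CD34+ libraries of tumors 1, 2 and 3. All CD34+ libraries were above all CD34- libraries. In limma-voom the difference on the log2 scale was -1.44 ± 0.43 (adjusted p 0.187), and -1.51 ± 0.38 with the block (adjusted p 0.0423). Under the block it lost the call without tumor 1 (adjusted p 0.266) and without tumor 2 (adjusted p 0.166), with values of -1.36 and -1.62. Kcnt1, its close relative, had no count in any library.

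Kcnma1, the large-conductance pore opened by calcium and voltage, had 20.1, 16.2 and 23.9 CPM in the CD34- libraries and 21.4, 10.97 and 2.75 CPM in the CD34+ libraries. The CD34- libraries were alike, whereas the CD34+ libraries fell apart, with tumor 1 as high as its CD34- partner and tumor 3 low. Its log2 fold change was 1.19 ± 0.49 in limma-voom (adjusted p 0.327), 0.82 ± 0.42 with the block, and 0.28 under the block without tumor 3. Kcnmb1, the accessory subunit that raises the calcium sensitivity of this pore in smooth muscle, had 1.75, 2.10 and 2.31 CPM in the CD34- libraries and 0.557, 0.679 and 0.247 CPM in the CD34+ libraries. Its groups did not overlap, and limma-voom gave 1.93 ± 0.75 on the log2 scale (adjusted p 0.302, and 0.179 with the block). The gene lies inside Kcnip1 on chromosome 11, and strand was not marked, so reads of the 2 genes cannot be told apart where they overlap.

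The calcium-activated genes of small and intermediate conductance were tested in 3 cases, all outside the naming rule. Kcnn1 had 5.02 ± 0.10 CPM in CD34- and 3.26 ± 1.21 CPM in CD34+ CAFs, with a log2 fold change of 0.63 ± 0.39. Kcnn3 ranged from 24.5 CPM in the CD34- fraction of tumor 1 to no count in that of tumor 3, and its value turned from -2.25 ± 1.88 without the block to 0.02 ± 0.58 with it. Kcnn4, the intermediate-conductance channel of blood cells and epithelia, had 2.38 ± 0.88 and 0.841 ± 0.684 CPM and a value of 1.34 ± 0.83 (adjusted p 0.501).

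Voltage-gated pores had low levels and wide errors, with a median standard error of 1.41 over the 10 tested. Kcnd1, a transient A-type channel and the highest of them per kilobase at 2.15 CPM per kilobase, had 4.57 ± 0.64 CPM in CD34- and 3.85 ± 1.21 CPM in CD34+ CAFs. Its log2 fold change was 0.07 ± 0.37 (adjusted p 0.951 in limma-voom), and its sign changed when a library was left out.

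Kcnq3, a subunit of the neuronal M-current, had 0.766, 3.96 and 5.64 CPM in the CD34- libraries and 0.743, 1.33 and 0 CPM in the CD34+ libraries, so tumor 1 showed no difference and tumor 3 had no count on the CD34+ side. Its value of 2.51 ± 1.82 (adjusted p 0.568 in limma-voom) was 0.48 without tumor 3. Kcnh3, a channel known from the forebrain, had 1.37 ± 0.83 and 0.585 ± 0.780 CPM and a value of 2.38 ± 1.17 (adjusted p 0.398), and it overlaps Mcrs1, a gene with 4303 counts against its 237. Kcnd3, known from the heart, had 0.582 ± 0.554 and 1.07 ± 0.32 CPM, and its value of -2.08 ± 1.44 became -0.34 without the CD34- library of tumor 3, where it had no count.

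The electrically silent modifiers do not form channels alone and combine with voltage-gated pores that do. Kcns1 had 12.9, 1.51 and 8.66 CPM in the CD34- libraries and 4.15, 0.480 and 0.282 CPM in the CD34+ libraries of tumors 1, 2 and 3. The groups overlapped across tumors, but the CD34- fraction was the higher one in each, with log2 ratios of 1.63, 1.64 and 4.86. In limma-voom its log2 fold change was 3.24 ± 1.43 (adjusted p 0.352), and 2.33 ± 0.76 with the block (adjusted p 0.0985). Under the block without the CD34- library of tumor 3 it was among 8 members called (18.2% of 44, beside 11.9% of all genes), as were Kcnab1 and the 5 above. Kcns3 had 3.32 ± 1.15 and 3.10 ± 0.71 CPM, and its value of 0.24 ± 0.44 changed sign when single tumors were left out.

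Accessory subunits showed no call with any fit on all 6 libraries. Kcne4 varied with the tumor: it had 72.5, 48.2 and 30.4 CPM in the CD34- libraries and 71.7, 49.0 and 24.7 CPM in the CD34+ libraries of tumors 1, 2 and 3. Both fractions of a tumor had nearly the same level, and tumors differed by more than fractions. On the log2 scale this was 0.16 ± 0.41 (adjusted p 0.889 in limma-voom) and 0.06 ± 0.15 with the block. Kcnip3, a calcium-binding partner of A-type channels that also acts in the nucleus, had 3.65 ± 1.06 and 5.16 ± 0.95 CPM and a value of -0.62 ± 0.38 (adjusted p 0.495). Kcnip1, another such partner, had 1.39 ± 1.73 and 0.310 ± 0.230 CPM and a value of 1.75 ± 1.34, with 123 of its 193 counts in the CD34- library of tumor 3.

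**Figure D4:**
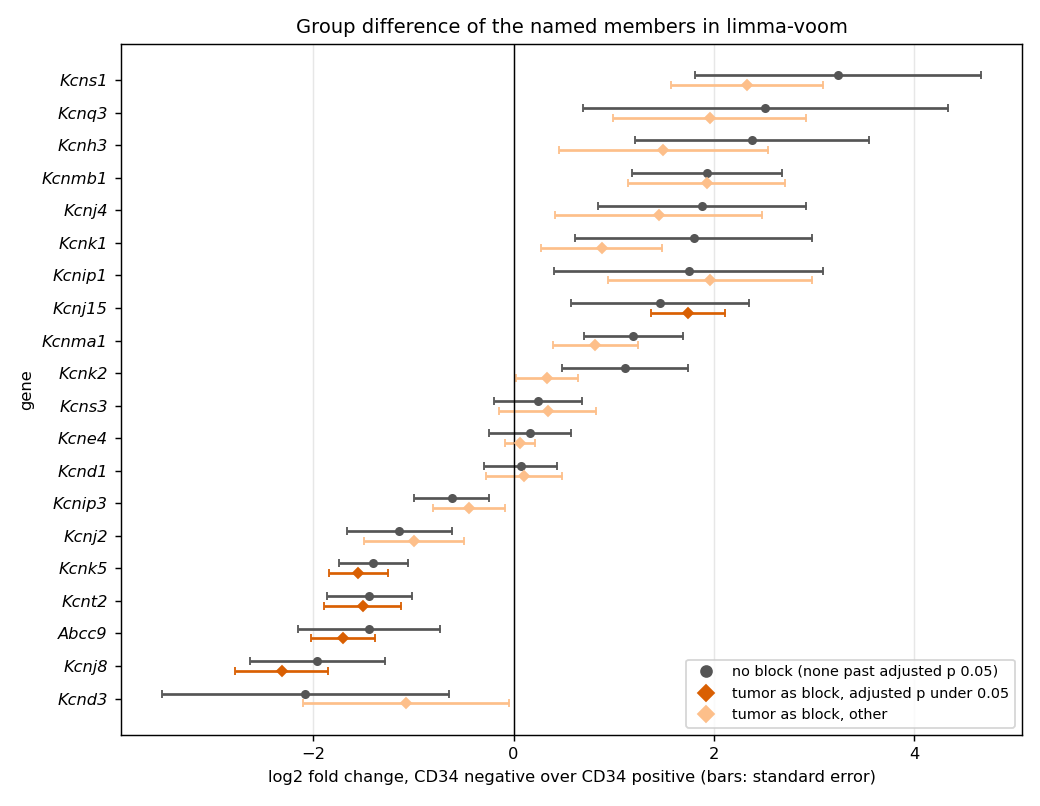
Log2 fold change of 20 of the 21 named members that could be fitted, with standard errors, without the block (grey circles) and with the tumor as block (diamonds, dark orange where the adjusted p was under 0.05). Kcnj8, Abcc9, Kcnk5 and Kcnt2 lie to the left of 0 and Kcnj15 to the right, and the widest bars belong to genes with few counts such as Kcnq3.

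The 54 members that were not tested comprised 12 without a count in any library and 42 with between 1 and 80 counts in all. The most abundant of these were Kcng4 with 80 counts and Kcnc2 with 78. The 12 included Abcc8, Kcna10, Kcnc1, Kcne2, Kcnj3, Kcnj11, Kcnj16, Kcnk9, Kcnk16, Kcnk18 and Kcnt1, among them pores known mainly from neurons, kidney and pancreatic islets. Kcnh2, the cardiac repolarizing channel, had 15 counts in all 6 libraries, and Kcnq5 had 27.

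Genes that work beside potassium channels were taken as a list of 51 transporters, pumps, calcium channels and kinases, of which 43 were tested. Without the block limma-voom called 0 of them and put 12 at an unadjusted p under 0.05, beside 2128 of all 14855 tested genes. With the block it called 8 (18.6%, beside the 8.57% of all genes given above). Atp1b1, a beta subunit of the sodium pump that imports potassium, was the single gene called lower, with 4.72, 2.70 and 3.58 CPM in the CD34- libraries and 15.3, 13.5 and 23.7 CPM in the CD34+ libraries. Its groups did not overlap, and limma-voom gave -2.15 ± 0.40 on the log2 scale (adjusted p 0.0769, and 0.00471 with the block). The pump regulator Fxyd6, at 372.1 ± 88.5 against 171.9 ± 122.5 CPM, was among those called higher in CD34- CAFs with the block (log2 fold change with the block 1.33 ± 0.30, adjusted p 0.0258). The potassium-chloride cotransporters Slc12a4 (0.72 ± 0.13, adjusted p 0.0114) and Slc12a7 (1.65 ± 0.43, adjusted p 0.0459) were called higher with the block as well. So were the calcium channel pores Cacna1c (1.10 ± 0.17, adjusted p 0.00520) and Cacna1g (0.72 ± 0.17, adjusted p 0.0278), and the stretch-gated channel Piezo2 (1.57 ± 0.40, adjusted p 0.0424). Under the block, Slc12a7 lost its call without tumor 1 (adjusted p 0.0830) and without tumor 2 (adjusted p 0.231), and Slc12a4 without tumor 2 (adjusted p 0.0526). Without tumor 3 the values of Fxyd6 and Piezo2 were 0.75 and 0.79, both still under the threshold. In edgeR with the block, Piezo2 (adjusted p 0.171), Fxyd6 (0.108), Slc12a7 (0.121) and Cacna1g (0.0828) were not called, and DESeq2 with the block did not call Piezo2 (adjusted p 0.215).

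Genes listed as markers of other cell types moved with some of these genes. The study describes CD34- CAFs as resembling myofibroblastic CAFs, and whether the fibroblasts themselves expressed the listed genes was not tested. The 10 pericyte and vascular smooth muscle markers summed to between 236.3 and 282.7 CPM in the CD34- libraries and between 40.3 and 114.6 CPM in the CD34+ libraries, and 9 of 9 tested had a positive fold change, with Des, Notch3, Actg2, Mcam and Cspg4 called higher with the block. Kcnj8 and Abcc9, which pericytes are known to express, lay the other way, while Kcnmb1 lay the same way. Of the defining pericyte markers, Rgs5 lay between 3.72 and 10.7 CPM in the CD34- and between 0.247 and 1.18 CPM in the CD34+ libraries (adjusted p 0.0803 with the block), Mcam between 34.6 and 45.6 and between 3.99 and 16.4 CPM, and Higd1b at 0.605 CPM or less throughout. The 8 endothelial markers summed to between 10.5 and 34.5 CPM in the CD34- and between 57.2 and 123.9 CPM in the CD34+ libraries, which came from Tek, at 5.45 to 13.4 and 48.8 to 115.6 CPM, called lower with the block. The other 7 together lay between 5.01 and 21.2 and between 8.33 and 29.7 CPM, with Pecam1 at 0.550 to 5.95 and 1.73 to 12.9 CPM, Kdr at 1.84 to 4.49 and 3.84 to 12.6 CPM, and Cldn5 at 0.908 CPM or less. Pecam1 and Kdr were highest in the CD34+ library of tumor 1, and neither was called. Of the 8 endothelial markers 7 were tested, 4 with a positive and 3 with a negative fold change, with a median of 0.068. Among the positive ones, Cdh5 was higher in the CD34- fraction of 3 of 3 tumors (log2 fold change 2.19 ± 1.78, adjusted p 0.617 in limma-voom). In tumor 3 this rested on 8 counts in the CD34- and 0 in the CD34+ library. Among the negative ones, Tek and Kdr were lower in the CD34- fraction of 3 of 3 tumors, Kdr with a log2 fold change of -0.56 ± 0.53 (adjusted p 0.666 in limma-voom).

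Epithelial markers summed to between 59.0 and 171.4 CPM in the CD34- and between 21.1 and 146.8 CPM in the CD34+ libraries, with overlap between the groups but the CD34- sum the higher one in each of the 3 tumors. Of these 8 markers 7 had a positive fold change, with a median of 0.77, and limma-voom called 0 with the block, while DESeq2 with the block called Krt8 (adjusted p 0.0283). Kcnj15 and the epithelial sum thus lay the same way within each tumor, but the order of the tumors differed. In the CD34- libraries of tumors 1, 2 and 3 the sum was 171.4, 150.9 and 59.0 CPM, and Kcnj15 was 10.6, 44.5 and 39.8 CPM. In the CD34+ libraries the sum was 146.8, 103.1 and 21.1 CPM, and Kcnj15 was 2.79, 18.2 and 3.03 CPM. The part of epithelial cells in the Kcnj15 values was not tested. Schwann cell markers summed to between 72.4 and 125.5 and between 42.0 and 96.4 CPM, mostly from Ncam1, with Foxd3 at 0 throughout. Immune markers lay between 7.61 and 20.02 CPM, neuron markers between 5.32 and 18.1 and skeletal muscle markers between 3.08 and 6.71 CPM. The 8 fibroblast markers summed to between 40920 and 59440 CPM, mostly from Col1a1 (11720 to 22780 CPM) and Col1a2 (16360 to 28760 CPM). Of the 8, 4 had a positive and 4 a negative fold change. With the block limma-voom called Pdgfrb higher in CD34- CAFs (0.94 ± 0.16, adjusted p 0.00714). It called Dcn (-1.12 ± 0.13, adjusted p 0.00154) and Lum (-0.73 ± 0.14, adjusted p 0.0140) lower. In bulk libraries, fewer cells of a type and less RNA per cell cannot be told apart, and the part of other cell types in the differences of potassium channel genes was not tested.

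**Figure D5:**
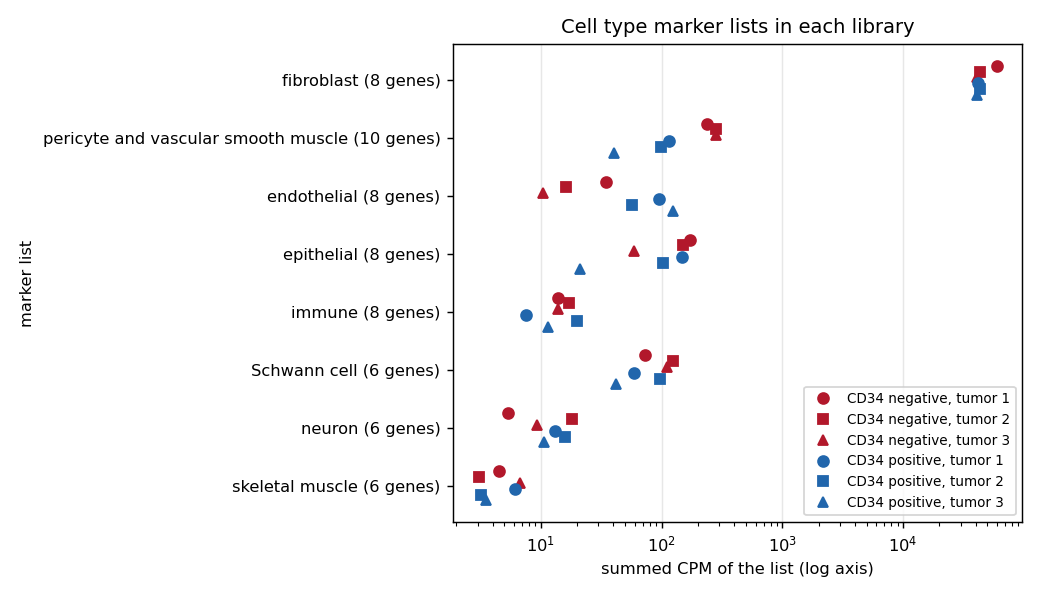
Summed CPM of 8 lists of cell type markers in each library on a log axis (red CD34-, blue CD34+, shape by tumor). The fibroblast list lies far above the others, and the pericyte and endothelial lists separate the groups in opposite directions. The endothelial separation comes from Tek, and the sum of the other endothelial markers, not drawn, overlaps between the groups.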

How the data were processed

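RNA was extracted from sorted cells and sequenced after a library protocol that does not mark strand. The authors aligned reads to GRCm38 and counted them per NCBI gene, and the deposited values are raw counts per library with no normalization. How reads with several matches were handled is not given in the sources used here. Members and gene lists were chosen with earlier results of these data known.

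Genes with few counts were dropped by filterByExpr (at a minimum count of 10), TMM factors were computed in edgeR 4.0.16, and voom with limma 3.58.1 (R 4.3.3) compared the groups, two-sided, with Benjamini-Hochberg adjustment over all 14855 tested genes and a threshold of 0.05. CPM is scaled by library total and TMM factor. Levels per kilobase use the gene length in the table. The tumor number pairs the libraries, because both fractions came from 1 tumor, and after removal of group means the 2 libraries of tumors 1, 2 and 3 correlated over genes at 0.373, 0.350 and 0.219. The main fit has no block and so leaves out this pairing, since the study's methods name no tumor term. They do not give the design matrix, so whether the study's own fit held such a term is not known. The main fit called 18 of all 14855 genes, and the study reported more than that as higher in CD34- CAFs. Named members are those with an adjusted p under 0.05 in either fit, those with an absolute log2 fold change of at least 1 and 1 sign in 3 tumors, the 2 highest per kilobase of each class, the ATP-sensitive channel genes, and Kcnk2, Kcnma1 and Kcnj15. Alternatives were edgeR's quasi-likelihood test, DESeq2 1.42.0, the block, other size factors, no filter, official symbols only, quality weights, a threshold of 0.1, and leaving out each library or tumor. The block without the CD34- library of tumor 3 was chosen after seeing the data. The fits were tested on simulated counts, where those with the block made a larger share of false calls than the nominal one. Some genes enter the counts but are not reported here by name.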

Additional observations from a re-analysis of the deposited data

How the results depend on the processing

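Across the alternatives, the count of called members was 0 except where the tumor block or DESeq2 was used. It was 5 with the replicate block in limma-voom, 2 with it in edgeR, 3 in DESeq2, 7 in DESeq2 with the block, and 8 with the block without the CD34- library of tumor 3, and it ranged from 0 to 8 over the 12 fits that leave out a library or tumor. Without the block it stayed 0 in all of these fits. With the block, 3, 4 and 8 members were called without tumors 1, 2 and 3, beside 1134, 851 and 2019 of all genes. Partner genes called numbered 8, 4, 5, 8 and 9 under the same 5 settings, 1 with quality weights, and 0 to 11 when a library or tumor was left out. Of all genes, 1273, 575, 698, 1733 and 1859 were called under these 5 settings. The number was 161 with quality weights and 0 to 2019 when a library or tumor was left out. The median member fold change was 0.074 without a filter on low counts, 0.078 with the block without the CD34- library of tumor 3, and 0.0997 to 0.42 over the fits that leave one out; fewer or more genes enter those fits, and the cause was not tested. Fold changes that changed sign were Kcnd1 (-0.049 to 0.42), Kcne4 (-0.25 to 0.46) and Kcns3 (-0.42 to 0.61), all values near 0, when a library or tumor was left out. Of 441 values of named members under alternatives, 402 kept direction and side of the threshold and 31 passed it only there. Of the 10 highest members per kilobase, 8 were also among the 10 highest by CPM.

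Low counts limit most members: 54 of 94 could not be tested, and a gene under 0.0346 to 0.185 CPM cannot be told from 0 in a library by counting error alone. The number of members with a count did not follow library size. It was 35 in the CD34- library of tumor 3, with 35310817 counts, and 53 in the CD34+ library of tumor 1, with 16238059 counts. The cause was not tested. With 3 tumors, fold changes had a median standard error of 0.91. The CD34- library of tumor 3 lacked counts for 1178 tested genes, so the fold change of Kcnd3 rests on a count of 0, and that of Kcnq3 on 0 in the CD34+ library of tumor 3.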
